A study of Mus musculus with 13 samples.

Results

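The 10 genes described here encode 4 Notch receptors (Notch1, Notch2, Notch3 and Notch4), the ligands Jag1 and Dll4, and 4 transcriptional repressors whose genes are classical Notch targets (Hey1, Hey2, Heyl and Hes1). They were taken by gene name from the gene count table of 13 mouse aortas, which lists 54532 genes, of which 15811 had enough counts to be tested. Each of the 10 names occurred once in the table and all 10 genes were tested. The aortas came from ApoE-/- mice (ApoE knockout) that were 10 weeks old at the start and received angiotensin II (AngII) from a subcutaneous pump at 1000 ng/kg/min for up to 28 days, a model in which abdominal aortic aneurysms form. The Ad-sham group (n = 6) received an empty adenovirus by tail vein, and the Ad-FAM3A group (n = 7) an adenovirus with mouse Fam3a, tagged with FLAG and driven by the EF1A promoter, in 5 injections a week apart. The EF1A promoter is active in most cell types and the virus was given into the blood, so expression was not directed to the aorta or to any of its cells. The methods also name a pAd/CMV vector. The paper detected the FLAG tag in several cell types of the aneurysm and in heart, liver and kidney. Which cells expressed the virus was not tested here. AngII and the knockout were common to both groups, and no aorta without AngII was analysed here. Each library was 1 whole-tissue aorta, and a gene's value is therefore an average over smooth muscle, endothelium, adventitia and any attached tissue.

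Notch receptors are membrane proteins that are cut when a ligand on a neighbouring cell binds them. The freed intracellular part enters the nucleus, joins the DNA-binding protein RBPJ and switches on genes such as Hes1 and those of the Hey family. In arteries, Notch1, Notch4 and the ligand Dll4 are known mainly from endothelial cells, while Notch2 and Notch3 are the receptors of vascular smooth muscle cells (VSMCs), where Jag1 signalling favours the contractile state. Hey2 is needed for arterial identity, and Heyl is best known from smooth muscle and pericytes.

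Total counts ran from 15588507 to 19797407 (median 16193850) in the Ad-sham aortas and from 14481179 to 16576977 (median 16013910) in the Ad-FAM3A aortas. The delivered gene did not separate the groups at the RNA level: Fam3a stood at 24.4 ± 4.27 CPM (counts scaled to a common library size after TMM normalization, mean ± SD) in Ad-sham and at 24.0 ± 4.64 in Ad-FAM3A, with a two-sided exact permutation p of 0.835, so directions below refer to the labels of the aortas. VSMC markers were abundant in all aortas, with a summed level of 7 genes from 2402 to 20103 CPM. Ad-sham1 (3127) and Ad-FAM3A6 (2402) were lowest, and both carried cardiac muscle transcripts, with 264 and 172 summed CPM over 4 genes against 6.98 to 70.0 in the other aortas. Ad-FAM3A6 and Ad-FAM3A7 were also highest in 4 B cell genes, at 536 and 207 summed CPM against 5.01 to 38.8 elsewhere. Results that rest on these aortas are given with and without them.

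The proximal promoters of 7 of the 10 genes were available from RefSeq (GRCm38.p6, for Notch1, Notch2, Notch3, Notch4, Jag1, Dll4 and Hey2), and 3 are shown because they belong to the target gene with the highest correlation with VSMC markers, the ligand with the steadiest level and the receptor with the highest level per gene length. Each run is the 250 bases before the RefSeq start, 5′ to 3′ on the strand of the gene. Capitals mark the core TGGGAA of the RBPJ recognition sequence, searched on both strands.
Hey2 (chr10:30842784-30843033, minus strand): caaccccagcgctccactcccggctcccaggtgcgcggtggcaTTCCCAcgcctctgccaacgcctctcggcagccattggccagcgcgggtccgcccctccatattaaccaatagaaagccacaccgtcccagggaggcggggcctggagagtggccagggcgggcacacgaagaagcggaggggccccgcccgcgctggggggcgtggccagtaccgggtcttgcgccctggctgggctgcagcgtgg
Dll4 (chr2:119325534-119325783, plus strand): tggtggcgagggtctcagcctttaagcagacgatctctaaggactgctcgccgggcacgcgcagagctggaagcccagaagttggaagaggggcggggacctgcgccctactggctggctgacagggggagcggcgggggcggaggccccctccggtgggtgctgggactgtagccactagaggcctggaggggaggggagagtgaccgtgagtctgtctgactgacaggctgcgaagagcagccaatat
Notch3 (chr17:32166891-32167140, minus strand): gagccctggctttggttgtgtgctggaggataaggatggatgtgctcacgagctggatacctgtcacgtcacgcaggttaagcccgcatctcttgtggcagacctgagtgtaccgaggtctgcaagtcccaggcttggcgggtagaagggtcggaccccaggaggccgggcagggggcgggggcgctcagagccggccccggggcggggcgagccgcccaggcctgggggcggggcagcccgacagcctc
The core occurred in 1 of the 7 windows, that of Hey2. It lies there on the opposite strand, with its first base 207 bases before the start, and it is part of the longer match GTGGGAA. For comparison, 21.6% of 32851 RefSeq windows of 250 bases hold TGGGAA and 5.42% hold GTGGGAA, so the match is a description of these letters and no more.

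Notch3, a receptor of VSMCs, had the highest level per gene length of the 4 receptors, and its groups were not separated. Notch3 (ENSMUSG00000038146, chromosome 17, 32120820 to 32166880, minus strand, GRCm38) ranged from 59.6 through a median of 105 to 129 CPM in Ad-sham and from 32.03 through 76.1 to 135 in Ad-FAM3A. All 6 Ad-sham values lay inside the range of Ad-FAM3A, which held both the lowest value (Ad-FAM3A2, well below the rest) and the highest (Ad-FAM3A1). Means were 102 ± 25.8 and 87.6 ± 34.9 CPM, a log2 fold change (Ad-FAM3A over Ad-sham, from edgeR's quasi-likelihood fit) of -0.21 (SE 0.28, 95% interval -0.81 to 0.38, exact permutation p 0.411). With 1 aorta left out it ranged from -0.343 (without Ad-FAM3A1) to -0.0517 (without Ad-FAM3A2).

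Notch2 (ENSMUSG00000027878, chromosome 3, 98013527 to 98150361, plus strand), the other VSMC receptor, ranged from 55.6 through 102 to 126 CPM in Ad-sham and from 64.0 through 112 to 116 in Ad-FAM3A. Of the 7 Ad-FAM3A aortas, 5 lay above the Ad-sham median, and the mean went from 95.3 ± 27.1 to 102 ± 18.8 CPM (log2 fold change 0.09, SE 0.20, exact permutation p 0.580). This difference was well inside the spread of either group.

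The receptors known from endothelium showed the same overlap. Notch1 (ENSMUSG00000026923, chromosome 2, 26457903 to 26516663, minus strand) ranged from 45.4 through 82.3 to 112 CPM in Ad-sham and from 43.2 through 73.2 to 94.9 in Ad-FAM3A, with a log2 fold change of -0.10 (SE 0.22, exact permutation p 0.790). Notch4 (ENSMUSG00000015468, chromosome 17, 34564268 to 34588503, plus strand) ranged from 22.3 through 46.7 to 54.4 CPM in Ad-sham and from 26.3 through 36.9 to 66.2 in Ad-FAM3A, with a log2 fold change of -0.11 (SE 0.23, exact permutation p 0.667). Notch4 was lowest in Ad-sham1 and highest in Ad-FAM3A4, the aorta with the most VSMC transcripts.

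Of the ligands, Jag1 (ENSMUSG00000027276, chromosome 2, 137081456 to 137116644, minus strand) ranged from 43.1 through 53.9 to 91.1 CPM in Ad-sham and from 34.7 through 59.4 to 91.1 in Ad-FAM3A. The upper ends of the groups were almost the same value, and the log2 fold change was 0.08 (SE 0.24, exact permutation p 0.776). Dll4 (ENSMUSG00000027314, chromosome 2, 119325784 to 119335962, plus strand) was the steadiest of the 10 genes across aortas. It ranged from 12.8 through 16.8 to 21.6 CPM in Ad-sham and from 12.6 through 15.9 to 20.7 in Ad-FAM3A, and both means were 16.7 CPM (± 3.54 and ± 3.15, log2 fold change 0.00, SE 0.17, exact permutation p 0.960). The 95% interval of the Dll4 difference, from -0.37 to 0.37, was the narrowest of the members and leaves room for a change of up to about 1.30-fold either way.

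**Figure D1:**
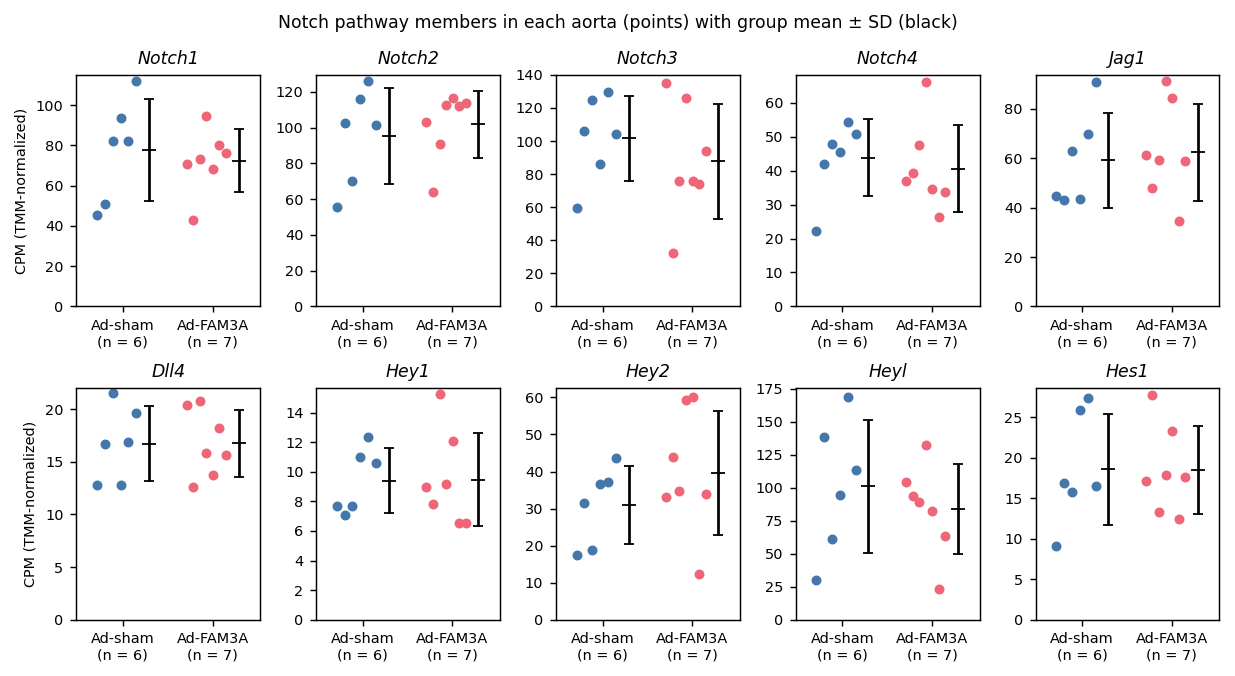
Level of each of the 10 genes in each aorta (points, CPM after TMM scaling, y axis from 0) for Ad-sham (n = 6) and Ad-FAM3A (n = 7), with the group mean ± SD in black. The groups overlap for all 10 genes, and relative to their level the widest ranges are those of Heyl, Hey2 and Notch3, with 7.34, 4.90 and 4.22-fold between the highest and the lowest aorta.

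Of the target genes, Heyl and Hey2 spread the most relative to their level. Heyl (ENSMUSG00000032744, chromosome 4, 123233556 to 123249875, plus strand) ranged from 29.8 through 104 to 168 CPM in Ad-sham and from 22.9 through 88.9 to 132 in Ad-FAM3A, a 7.34-fold range over the 13 aortas. The lowest aorta of each group was the one poor in VSMC transcripts, Ad-sham1 and Ad-FAM3A6. Means were 101 ± 50.5 and 83.9 ± 34.1 CPM, with a log2 fold change of -0.27 (SE 0.39, 95% interval -1.10 to 0.57, exact permutation p 0.638). Without Ad-FAM3A6 and Ad-FAM3A7, a choice made after seeing the data, the log2 fold change of Heyl was -0.01 (SE 0.34). Without Ad-sham1 and Ad-FAM3A6, the lowest aorta of each group, it was -0.27 (SE 0.24). With the VSMC marker score (the mean log2 CPM of 7 marker genes) as a covariate, it was -0.50 (SE 0.21, unadjusted p 0.0351 and adjusted p 0.666 in edgeR's quasi-likelihood test).

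Hey2 (ENSMUSG00000019789, chromosome 10, 30832359 to 30842801, minus strand) had the largest difference of the 10. It ranged from 17.4 through 34.1 to 43.6 CPM in Ad-sham and from 12.3 through 34.6 to 60.2 in Ad-FAM3A, so the medians nearly coincided while Ad-FAM3A held both extremes. Means were 30.9 ± 10.6 and 39.6 ± 16.7 CPM, with a log2 fold change of 0.36 (SE 0.32, 95% interval -0.33 to 1.05, exact permutation p 0.448). Without Ad-FAM3A6 and Ad-FAM3A7, the log2 fold change of Hey2 was 0.59 (SE 0.26, unadjusted p 0.0434 and adjusted p 0.776 in edgeR's quasi-likelihood test). It was 0.42 (SE 0.24) without Ad-sham1 and Ad-FAM3A6, and 0.10 (SE 0.20) with the VSMC marker score as a covariate.

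Hey1 and Hes1 had log2 fold changes close to 0. Hey1 (ENSMUSG00000040289, chromosome 3, 8663359 to 8667256, minus strand), a repressor present in endothelium and smooth muscle, ranged from 7.09 through 9.15 to 12.3 CPM in Ad-sham and from 6.54 through 8.99 to 15.2 in Ad-FAM3A (log2 fold change 0.01, SE 0.24, exact permutation p 0.934). Hes1 (ENSMUSG00000022528, chromosome 16, 30064384 to 30067796, plus strand), a target of Notch in most cell types, ranged from 9.06 through 16.7 to 27.4 CPM in Ad-sham and from 12.4 through 17.6 to 27.7 in Ad-FAM3A (log2 fold change -0.01, SE 0.26, exact permutation p 0.902). Hes1 was highest in Ad-FAM3A2, the aorta in which Notch1, Notch3 and Dll4 were lowest.

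Over the 10 genes, none was called (Benjamini-Hochberg adjusted p under 0.05 in edgeR's quasi-likelihood test and a log2 fold change beyond 1 in either direction), and the background was 0% of the 15811 genes tested. The paper reports genes passing these thresholds in both directions from its RNA sequencing of this model. The fit used here called none, and the source of that difference was not tested. No member had an unadjusted p under 0.05 in the quasi-likelihood test either, where 5.91% of all genes did (2.98% higher and 2.93% lower in Ad-FAM3A). The smallest unadjusted p of a member was 0.282 (Hey2), and adjusted p-values ran from 0.838 to 0.998. The members split evenly, 5 being higher and 5 lower in Ad-FAM3A, where 50.4% of all genes were higher, and the median log2 fold change was -0.003 for the members and 0.003 for all genes. Groups that did not overlap were seen for 0.0949% of all genes and for 0 members. A p-value above the threshold does not show that the groups were equal. All 10 members had a log2 fold change under 0.5 in size, as did 82.9% of all genes. The 95% intervals excluded a log2 change of 1 in either direction for 8 of the 10 genes, and those of Heyl and Hey2 did not. The test called 61 of 200 genes (30.5%) with a simulated log2 change of 1 and 161 of 200 (80.5%) with one of 2, for this comparison over 15811 genes.

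**Figure D2:**
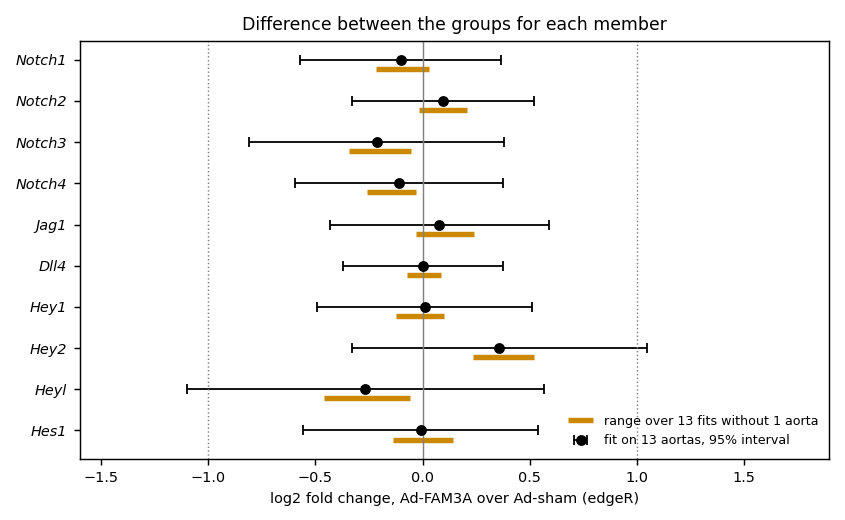
Log2 fold change of each gene, Ad-FAM3A over Ad-sham, from edgeR's quasi-likelihood fit on 13 aortas (points) with its 95% interval (bars); orange lines span the values from the 13 fits that leave out 1 aorta. All 10 intervals include 0, and those of Heyl (-1.10 to 0.57) and Hey2 (-0.33 to 1.05) are widest.

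To compare the genes with each other, CPM was divided by the gene length in kilobases given in the deposited table. For each member but Notch3 this length equals all annotated exonic bases of the gene, which can exceed the length of the transcript expressed. The order below depends on that divisor, and which transcripts were expressed was not tested. On this scale Heyl was highest, at 18.0 ± 8.12 CPM per kb (SD, n = 13), and it led in 10 of the 13 aortas. Notch3 (11.7 ± 3.81) and Jag1 (10.5 ± 3.22) followed. A middle tier held Notch2 (9.16 ± 2.06), Hes1 (9.10 ± 2.88) and Hey2 (7.75 ± 3.13), then came Notch1 (5.26 ± 1.40) and Notch4 (5.23 ± 1.47), and Dll4 (4.34 ± 0.828) and Hey1 (2.89 ± 0.811) closed the order. Of the 9 pairs of neighbours in this order, Dll4 and Hey1 alone differed beyond their spread: Dll4 was higher in 11 of 13 aortas, by 0.61 on the log2 scale (two-sided exact sign-flip test, p adjusted over 9 pairs 0.00879). Heyl exceeded Notch3 in 10 of 13 aortas by 0.52 on the log2 scale, which did not pass (adjusted p 0.107 in the same exact test). Without Ad-FAM3A6 the number of neighbours that differed was 3, and without Ad-sham1 or without Ad-sham4 it was 2.

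Among the receptors, Notch3 was highest per kb in 9 aortas and Notch2 in 4 (Ad-sham4, Ad-FAM3A2, Ad-FAM3A5 and Ad-FAM3A6). Among the targets, Heyl was highest in 12 aortas, and Hes1 in Ad-FAM3A6. The authors' own FPKM, deposited as 1 mean per group, gave the same first and last genes: 19.4 (Ad-sham) and 16.3 (Ad-FAM3A) for Heyl, and 2.85 and 2.89 for Hey1. These FPKM come from the same libraries and are not an independent check of the order.

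**Figure D3:**
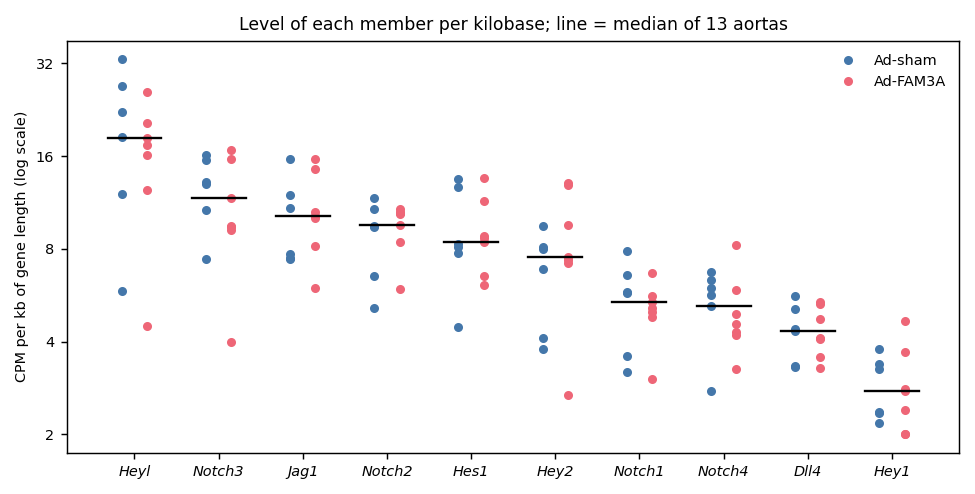
Level of each gene per kilobase in each of the 13 aortas (points, CPM per kb, log scale), ordered by mean, with the median as a line. Heyl is at the top with the widest spread, and Hey1 is at the bottom.

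The 13 aortas also differed from each other in ways the labels do not describe, and the members' values were compared across them. Of 45 pairs of members, 42 (93.3%) correlated positively in log2 CPM, with a median Pearson's r of 0.41 and a range from -0.31 (Dll4 with Hes1) to 0.82 (Notch4 with Heyl). Over all pairs of the 15811 tested genes, 49.3% were positive and the median r was -0.008. Without Ad-sham1 and Ad-FAM3A6, 36 member pairs were positive with a median r of 0.28, and without Ad-FAM3A2 as well, 32 were positive with a median r of 0.17, both settings chosen after seeing the data. These pairs share genes and libraries, and the counts are a description. With each member's relation to a VSMC score and to an endothelial score (the mean log2 CPM of 7 and of 8 marker genes), 65 relations were computed, and 4 passed a two-sided permutation test of Pearson's r after Benjamini-Hochberg adjustment. None of the 65 passed by Spearman's rho.

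Hey2 and Heyl had the highest correlations with the VSMC score. Hey2 correlated with the VSMC score at r = 0.86 (permutation p 0.00013, adjusted 0.00845, rho 0.65, permutation p 0.0181, adjusted 0.162), with r = 0.70 within Ad-sham and 0.93 within Ad-FAM3A. Heyl correlated with it at r = 0.86 (permutation p 0.00043, adjusted 0.0140, rho 0.69, permutation p 0.0112, adjusted 0.162), with 0.86 and 0.95 within the groups. Among the 15804 tested genes that are not in the score, 2.85% had an r with it at least as high as that of Hey2 and 3.07% one at least as high as that of Heyl. The other relations that passed were Notch4 with Heyl (r = 0.82, adjusted permutation p 0.0180, rho 0.70, adjusted permutation p 0.162; 0.84 and 0.80 within the groups) and Hey2 with Heyl (r = 0.79, adjusted permutation p 0.0331, rho 0.50, adjusted permutation p 0.220; 0.85 and 0.89 within the groups).

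These relations rest on Ad-sham1 and Ad-FAM3A6 together, the 2 aortas poorest in VSMC transcripts. Both were also the lowest in pericyte markers (scores of 6.91 and 6.58 against 7.31 to 8.37 in the other aortas) and in arterial endothelial markers (4.15 and 3.95 against 4.24 to 5.85). Heyl correlated with the endothelial score at r = 0.62 (0.39 within Ad-sham and 0.90 within Ad-FAM3A). Without both aortas, r fell to 0.63 for Hey2 with the score, 0.53 for Heyl with the score, 0.53 for Notch4 with Heyl and 0.37 for Hey2 with Heyl, and 0 of the 65 relations passed. With 1 of them left out, r moved less although none of the 65 passed. In the same order it was 0.83, 0.81, 0.74 and 0.74 without Ad-sham1, and 0.78, 0.76, 0.79 and 0.64 without Ad-FAM3A6. It was 0.80, 0.75, 0.77 and 0.66 without Ad-FAM3A6 and Ad-FAM3A7, where again none passed. Hey2 with Heyl stood just above the threshold without Ad-sham3, Ad-sham6, Ad-FAM3A1, Ad-FAM3A3 or Ad-FAM3A4 (adjusted permutation p 0.05005 to 0.0739), while its r stayed at 0.78 to 0.80. In these aortas fewer VSMCs and less RNA per VSMC cannot be told apart, and the part of the pericyte, arterial endothelial and cardiac muscle transcripts in Ad-sham1 and Ad-FAM3A6 was not tested.

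For the receptors known from VSMCs, the relation to the VSMC score did not pass and depended on single aortas. Notch3 correlated with the score at r = 0.17 (0.56 within Ad-sham and 0.09 within Ad-FAM3A), which was 0.03 without Ad-sham1 and 0.55 without Ad-FAM3A2. Notch2 correlated with it at 0.30 (0.85 within Ad-sham and -0.22 within Ad-FAM3A), which was -0.01 without Ad-sham1 and 0.52 without Ad-FAM3A6. The difference of these relations from those of Hey2 and Heyl was not tested. After Hey2 and Heyl, the highest members with the VSMC score were Hes1 (r = 0.68) and Notch4 (r = 0.66), a receptor known from endothelium. Neither passed (adjusted permutation p 0.102 for each). Without Ad-sham1 and Ad-FAM3A6 their r was 0.34 and 0.15. Notch3 and Heyl correlated at r = 0.38 (adjusted permutation p 0.340, rho 0.63). Dll4 correlated with the VSMC score at -0.16 and with the endothelial score at 0.07, and no member passed with the endothelial score (Hey2 was highest, at 0.64, adjusted permutation p 0.103). The VSMC score was 8.79 ± 0.78 in Ad-sham (n = 6) and 9.06 ± 1.05 in Ad-FAM3A (n = 7, exact permutation p 0.602), and the endothelial score 7.15 ± 0.37 and 7.09 ± 0.27 (exact permutation p 0.744).

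**Figure D4:**
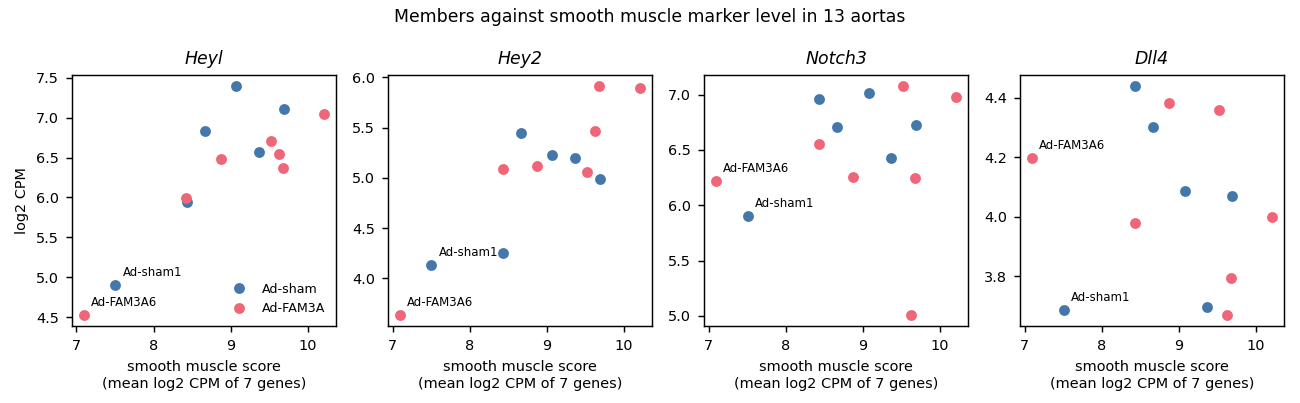
Log2 CPM of Heyl, Hey2, Notch3 and Dll4 (y axis, its own range in each panel) against the VSMC (smooth muscle) score (x axis, mean log2 CPM of 7 marker genes) in 13 aortas. Heyl and Hey2 are lowest in Ad-FAM3A6 and among the lowest in Ad-sham1, the 2 labelled aortas with scores of 7.09 and 7.51, and Dll4 shows no such slope (r = -0.16).

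The low values gathered in 3 aortas. Ad-sham1 held 8 of the 10 genes in their lowest 2 values, Ad-FAM3A6 held 6 and Ad-FAM3A2 held 4. The share of all tested genes with their lowest 2 values in these aortas was not computed. The counts therefore describe the members and do not set them apart from other genes. Ad-FAM3A2 was not poor in VSMC transcripts (score 9.63), and Notch1, Notch2, Notch3 and Dll4 were low there, of which the 3 receptors measure 14232, 10782 and 8044 bases in the table and Dll4 3852. Notch4, at 8061 bases as long as Notch3, was not low there (39.5 CPM against a median of 42.0 over the 13 aortas). In this aorta the 2090 genes of at least 8000 bases lay at a median log2 deviation of -0.36 from their mean over aortas and the 1068 genes under 2000 bases at 0.68, a difference of -1.04, whereas the other aortas ran from -0.58 to 0.51. The median deviation of the 4 receptors was -0.66 in Ad-FAM3A2. It was -0.73 in Ad-sham1, where long and short genes differed by only -0.05. The part of gene length in the low receptor values was not tested.

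**Figure D5:**
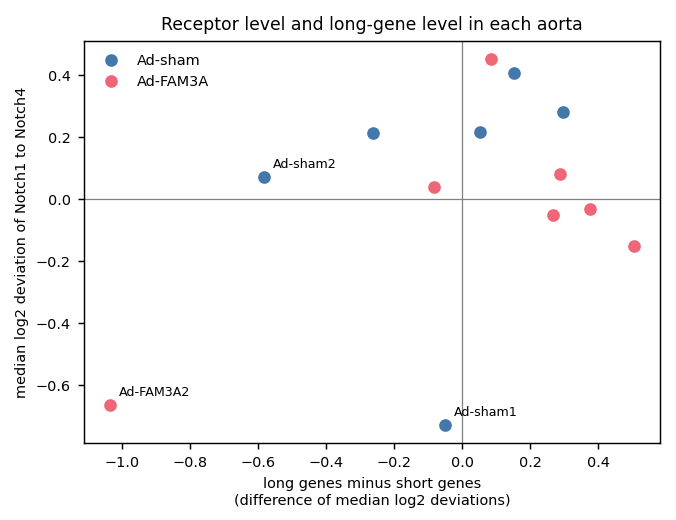
Median log2 deviation of Notch1 to Notch4 from their mean over 13 aortas (y axis) against the difference between long and short genes in the same aorta (x axis, median log2 deviation of 2090 long minus 1068 short genes). Ad-FAM3A2 is low on both axes (-1.04 and -0.66), and Ad-sham1 is low in the receptors (-0.73) but not in long genes (-0.05).

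The rest of the pathway was examined as a list of 48 genes, of which 43 were tested (Dll3, Dlk2, Hes2, Hes5 and Hes7 had too few counts). None passed the adjusted threshold, 20 were higher and 23 lower in Ad-FAM3A, and the median log2 fold change was -0.01. An unadjusted p under 0.05 was seen for 1 of the 43, against 5.91% of all genes. It was Rfng, a fringe glycosyltransferase that modifies Notch receptors and so tunes which ligands they answer. Rfng ranged from 18.4 through 25.7 to 30.5 CPM in Ad-sham and from 15.2 through 18.2 to 22.02 in Ad-FAM3A, and all 7 Ad-FAM3A aortas lay below the Ad-sham median although the groups overlapped. Its log2 fold change was -0.41 (SE 0.16, unadjusted p 0.0201 and adjusted p 0.810 in edgeR's quasi-likelihood test, exact permutation p 0.0262). Alternatives moved it both ways. It was -0.34 without Ad-sham2 (unadjusted p 0.0541 in the same test), -0.35 without Ad-sham3 (0.0515), -0.37 with the replicate number as a block (0.0573) and -0.33 without Ad-FAM3A6 and Ad-FAM3A7 (0.0743). It was -0.46 with the VSMC score as a covariate (unadjusted p 0.0037 in the same test), -0.48 without Ad-sham1 (0.0102) and -0.48 without Ad-sham6 (0.0077).

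By role, the 3 other ligands tested were all lower (0 with an unadjusted p under 0.05), with log2 fold changes from -0.42 (Jag2) to -0.02 (Dlk1). Of the 14 genes that process ligands and receptors, such as the protease Adam10 and the subunits of gamma-secretase, 6 were higher and 8 lower, between -0.35 and 0.23. Of the 5 glycosylation genes, 3 were higher and 2 lower, Lfng, another fringe, being at 0.45 (SE 0.27) and, without Ad-FAM3A6, at 0.21 (SE 0.22). Without Ad-FAM3A6 and Ad-FAM3A7, Lfng was at 0.10 (SE 0.22). Of the 11 genes of the nuclear complex, 7 were higher and 4 lower, with RBPJ's gene Rbpj at 0.10 (SE 0.20). Of the 9 inhibitors and turnover genes, 4 were higher and 5 lower, from -0.42 (Dtx4) to 0.67 (Dtx1, SE 0.57), both members of the Deltex family. The value of Dtx1 rested on Ad-FAM3A6, at 44.0 CPM, and was -0.15 (SE 0.38) without it. Without Ad-sham5, Dtx4 was at -0.27 and Jag2 at -0.25. The 1 other target tested, Hes6, was at -0.10. Apart from Rfng, the genes named here for their values were chosen after those values were seen.

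The genes whose log2 CPM most resembled that of each member over the 13 aortas were sought among the other 15801 tested genes, as a description without a test. Heyl was matched best by Kcnh2 (r = 0.97), a potassium channel gene, followed by Dact3 and Slc29a1 (both 0.96). Hey2 was matched best by Gpr161 (0.98), Tiam2 and Atp8b1 (both 0.97). The best match of Hes1 was Gja4 (0.91), an arterial endothelial connexin, and that of Notch1 was Cmip (0.94), of Notch2 Ago1 (0.92), of Notch3 Zfp446 (0.92), of Notch4 Zfp64 (0.92), of Jag1 Sytl5 (0.91), of Hey1 Epdr1 (0.90) and of Dll4 Gm17024 (0.87). No member's closest match was another gene of the 48 in the pathway list. With only 43 of these among the 15801 genes searched, such a match was improbable beforehand, and its absence carries no reading. These r values share the same 13 libraries, including those that stand apart.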

How the data were processed

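RNA from 13 aortas was sequenced. After a quality filter, reads were mapped by the authors to GRCm38 with Hisat2, and raw FeatureCounts counts for each Ensembl gene were deposited. FPKM were deposited by the authors as 1 mean per group. The labels and the methods name different RNA and library kits. The strand setting, the handling of multi-mapped reads and the annotation release are not given in the sources used here, so counts of overlapping genes are uncertain. By counts, the largest such overlap was Gm14207, antisense to Dll4, with 101 counts over 13 aortas against 3523 for Dll4. By shared exonic bases it was 0610009E02Rik, antisense to Notch1, with 1068 bases and 69 counts against 15785 for Notch1.

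Samples were grouped by their labels, with 0 columns left unmapped. Counts were analysed in R 4.3.3 with edgeR 4.0.16 (TMM, filterByExpr, quasi-likelihood test, Benjamini-Hochberg adjustment over 15811 genes; log2 CPM with a prior count of 2). Calls needed an adjusted p under 0.05 together with a log2 fold change beyond 1 in either direction. Alternatives used limma 3.58.1 and DESeq2 1.42.0. Each single value was tested by exact permutation, two-sided, over 1716 splits (smallest possible p 0.00117), and correlations by 100000 resamples in scipy 1.17.1. Promoter windows and gene names came from RefSeq and the deposited table, whose start, end and strand equalled those of the reference annotation for 9 of the 10 members, Notch3 excepted. The quasi-likelihood test was tested on simulated data: 5 of its 66 calls at a simulated log2 change of 1, and 8 of 169 at 2, were unchanged genes. No library pair within a group agreed within sampling noise (smallest chi-square per degree of freedom 44.5 over 36 pairs).

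The members and gene lists were chosen with earlier results of these data known. By rule, named genes are the members, pathway genes with an unadjusted p under 0.05, the 3 genes most like each member, and markers where needed. Jag2, Dlk1, Lfng, Rbpj, Dtx4, Dtx1 and Hes6 fall outside it and were chosen after their values were seen. Alternatives were other scalings, filters and tests, covariates, the replicate number as a block, and each aorta left out in turn, and 3 that leave out 2 or 3 aortas were added after seeing the data. The labels name no litter or batch. The other assays of the study were not analysed here.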

Additional observations from a re-analysis of the deposited data

Results flagged for a closer look

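Of 24 sets of values examined (the 10 members and the VSMC and endothelial scores, each in both groups), 6 held an aorta whose gap to the others was large for the group's range by Dixon's criterion. The criterion's nominal rate for independent values gives about 1.2. The share of all tested genes flagged in this way was not computed. Ad-FAM3A2 stood below the other Ad-FAM3A aortas in Notch1 (5.44 log2 CPM, the others 6.09 to 6.57), in Notch2 (6.003, the others 6.51 to 6.87) and in Notch3 (5.01, the others 6.22 to 7.08). Ad-sham1 stood below the other Ad-sham aortas in Notch4 (4.49, the others 5.40 to 5.77). Ad-FAM3A6 stood below the other Ad-FAM3A aortas in Hey2 (3.63, the others 5.05 to 5.91) and in Heyl (4.53, the others 5.99 to 7.05). The values come from few libraries, so they are not independent of each other.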

How the results depend on the processing

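None of the 10 members was called in any of the 25 alternatives, where the smallest adjusted p of a member was 0.644 and the largest log2 fold change 0.59 (Hey2 without Ad-FAM3A6 and Ad-FAM3A7). DESeq2 with its defaults called 9 genes of all those tested, none a member. The number of members with an unadjusted p under 0.05 was 1 with the VSMC score as a covariate (Heyl), where 7.28% of all tested genes had one, and 1 without Ad-FAM3A6 and Ad-FAM3A7 (Hey2), where 6.27% did. For the pathway list that number was 2 with the VSMC score (Mib2 and Rfng), and it ranged from 0 to 2 when 1 aorta was left out, where 3.07% to 8.60% of all tested genes had one. The number of relations that passed ranged from 0 to 6 when 1 aorta was left out, and was 0 in both added settings. The number of neighbours in the level order that differed ranged from 1 to 3.

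The sign of a member's log2 fold change was turned in 41 of 250 recomputed values, for 7 genes whose fold changes were small (-0.11 for Notch4 the largest in size), and Notch3, Hey2 and Heyl kept theirs but moved by over 1.5 times with single aortas left out. Heyl ranged from -0.460 (without Ad-sham1) to -0.0595 (without Ad-sham5), Notch3 from -0.343 (without Ad-FAM3A1) to -0.0517 (without Ad-FAM3A2) and Hey2 from 0.237 (without Ad-sham1) to 0.521 (without Ad-FAM3A6). Hes1 turned to 0.0140 with DESeq2's size factors, to 0.0107 without a filter, to 0.0123 with DESeq2, to 0.0144 with limma-voom, to 0.0434 with the endothelial score and to 0.104 without Ad-FAM3A6 and Ad-FAM3A7. Dll4 turned to -0.00137 with upper quartile scaling, to -0.0207 with at least 10 counts in every aorta, to -0.0729 without Ad-sham1 and Ad-FAM3A6 and to -0.0149 without Ad-FAM3A6 and Ad-FAM3A7. Hey1 turned to -0.00295 with upper quartile scaling, to -0.0104 with at least 10 counts, to -0.0499 with limma-voom and to -0.0423 with the VSMC score, with which Jag1 turned to -0.0419. Notch2 turned to -0.0226 without Ad-sham1 and Ad-FAM3A6, and Notch4 to 0.0303 without Ad-FAM3A6 and Ad-FAM3A7. With 1 aorta left out, the log2 fold change ranged from -0.0733 to 0.0883 for Dll4, from -0.139 to 0.144 for Hes1, from -0.124 to 0.0996 for Hey1, from -0.0299 to 0.242 for Jag1, from -0.219 to 0.0293 for Notch1 and from -0.0146 to 0.205 for Notch2, and the median of the members from -0.106 to 0.0513. The cause of these shifts was not tested.

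The groups share replicate numbers 1 to 6, but the labels tie no shared animal, litter or day to a number. Same-numbered aortas correlated in their deviations from the group means at -0.33 to 0.45, with 3 of 6 pairs over 0.1 and 1 of 6 best with its own number. With the replicate number as a block, 0 pathway genes had an unadjusted p under 0.05 (Rfng at -0.37, with 0.0573 in edgeR's quasi-likelihood test), where 3.92% of all tested genes had one, Hes1 turned to 0.0307, and no member was called.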

Other observations

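Within-group correlations of some members differed between the groups, and these were picked after the values were seen. Dll4, the ligand of endothelium, and Hes1 correlated at r = 0.10 within Ad-sham (n = 6) and at -0.86 within Ad-FAM3A (n = 7). Notch1 correlated with the endothelial score at 0.86 within Ad-sham and at 0.01 within Ad-FAM3A. These are not the largest contrasts. Notch2 correlated with Hes1 at 0.92 within Ad-sham and at -0.47 within Ad-FAM3A, and Notch1 with Hes1 at 0.62 and -0.68. The difference between the groups was not tested for any of these relations.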
